A study of Mus musculus with 117 samples.

Results

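The genes described here are 35 mouse genes that mark macrophages, followed in cultures that were prepared as embryonic fibroblasts and in the pluripotent cells derived from them or set beside them. They were chosen by symbol, as known macrophage genes and with earlier results of these data known, from the 26301 genes of an RNA count table, in which all 35 were found. RNA was measured in 28 libraries of 10 groups. Ubc9 is the enzyme that conjugates the small protein modifier SUMO to its targets, and it was depleted with a hairpin named shUbc9, set against the control hairpin shCtrl, or in ES cells with an siRNA named siUbc9, set against siCtrl. The groups were MEF shUbc9 (n = 2) and MEF shCtrl (n = 3), which are embryonic fibroblasts taken at E13.5 and kept to passage 1; D4 shUbc9 and D4 shCtrl, the same kind of cells expressing the reprogramming factors OKSM for 4 days (n = 3 each); and D7 shUbc9 and D7 shCtrl, expressing them for 7 days (n = 3 each). Induced pluripotent cells derived from MEF gave iPS shUbc9 (n = 3) and iPS shCtrl (n = 2), and ES cells at passages 15 to 20 gave ES siUbc9 and ES siCtrl (n = 3 each). Every group except the ES cells therefore carried a hairpin, and all groups from D4 to iPS had also expressed the factors. The labels name neither the strain nor separate cultures for the replicates, so p-values measure the spread between these libraries, which may be technical. The comparisons asked how far these genes move together on depletion and along reprogramming.

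Macrophages are phagocytes of the innate immune system that settle in embryonic tissues early in development, and fibroblast cultures made from whole embryos can carry them along. They depend on the growth factor CSF1, sensed by the receptor Csf1r, and on the transcription factor PU.1, encoded by Spi1, which binds purine-rich sites near the start of many myeloid genes. The 35 genes cover what such cells do: complement subunits, receptors for microbes, lipids and antibodies, integrins and other surface proteins, lysosomal enzymes and blood-cell regulators of actin. In bulk RNA, fewer cells of a type and less RNA per cell cannot be told apart.

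Part of the members' promoters show the purine-rich letters that PU.1 is known for. RefSeq promoters of assembly GRCm38.p6 were on hand for 26 of the 35 genes, and the motif searched was GAGGAA on both strands (TTCCTC on the other), in the 250 bases before a gene's start. It was found in 15 of 26 of these genes, 57.7%, and in 6986 of 27025 genes with a promoter in the table, 25.9%. A match is a description of letters, not a site of binding. Windows of 80 bases are given for 5 genes that carry the motif and had the smallest p at D4, and for Laptm5, whose levels ran apart from theirs. All are written on the strand of the gene, with the motif in capitals. Mrc1 had 3 matches in the 250 bases, of which 1 lies in its window. Another promoter of Ptprc, not printed, had 0 matches. Mrc1 lies on the plus strand at chr2:14229334-14229413, Fcgr3 on the minus strand at chr1:171059395-171059474, C1qb on the minus strand at chr4:136886201-136886280, Ctss on the plus strand at chr3:95526582-95526661, Ptprc on the minus strand at chr1:138175424-138175503 and Laptm5 on the plus strand at chr4:130913236-130913315.
Mrc1: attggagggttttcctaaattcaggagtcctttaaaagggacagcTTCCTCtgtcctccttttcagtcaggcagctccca
Fcgr3: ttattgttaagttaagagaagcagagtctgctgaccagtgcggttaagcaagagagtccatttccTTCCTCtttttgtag
C1qb: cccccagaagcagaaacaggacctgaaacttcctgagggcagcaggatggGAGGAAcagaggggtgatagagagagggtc
Ctss: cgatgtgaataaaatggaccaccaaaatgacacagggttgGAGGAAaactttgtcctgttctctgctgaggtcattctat
Ptprc: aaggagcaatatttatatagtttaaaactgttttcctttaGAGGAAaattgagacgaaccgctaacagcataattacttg
Laptm5: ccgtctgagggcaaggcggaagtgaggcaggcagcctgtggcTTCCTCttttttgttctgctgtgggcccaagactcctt

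Gene counts ranged from 11.4 to 58.8 M per library, and no pair of libraries in a group differed by as little as sampling noise. Levels are given as CPM, which are counts divided by the TMM-scaled library size and put on a common scale; they are compared between groups within a gene, and gene length was not used.

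Several libraries stood apart within their own group in these genes. Among members with a group mean of at least 1 CPM, D7 shCtrl replicate 3 was the highest of its 3 libraries for 27 of 28, while it was the highest for 19.1% of all genes at that level. MEF shCtrl replicate 2 was the highest of its group for 29 of 31 members, against 56.9% of genes. Replicate 1 of iPS shCtrl exceeded replicate 3 for 25 of 27 members, against 51.0% of genes, and iPS shUbc9 replicate 2, which had the fewest counts of all 28 libraries, was the highest of its group for 18 of 26 members, against 40% of genes.

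The sum of the 35 genes was 544 and 562 CPM in MEF shUbc9, against 294, 410 and 363 CPM in MEF shCtrl. At D4 it was 360, 364 and 373 CPM in shUbc9 and 227, 233 and 226 CPM in shCtrl. D7 shUbc9 had 303, 247 and 270 CPM, against 252, 232 and 360 CPM in D7 shCtrl. The depleted libraries lay above the controls in MEF and at D4, and overlapped them at D7. iPS shUbc9 had 166, 372 and 187 CPM and iPS shCtrl 311 and 136 CPM. ES siUbc9 had 127, 128 and 125 CPM, against 107, 106 and 104 CPM in ES siCtrl. Even at its highest the sum was a small part of the RNA, 0.0489% and 0.05% of gene counts in MEF shUbc9. A single gene, Lyz2, which encodes the macrophage lysozyme, made up 34.1% and 30.5% of the sum in MEF shUbc9, whereas in the ES libraries it held at most 0.0395% and the lysosomal membrane protein gene Laptm5 held 13.0% to 31.5%. Reads of Lyz2 could be shared with its near-identical neighbour Lyz1, and those of Fcgr3 with related Fc receptor genes.

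**Figure D1:**
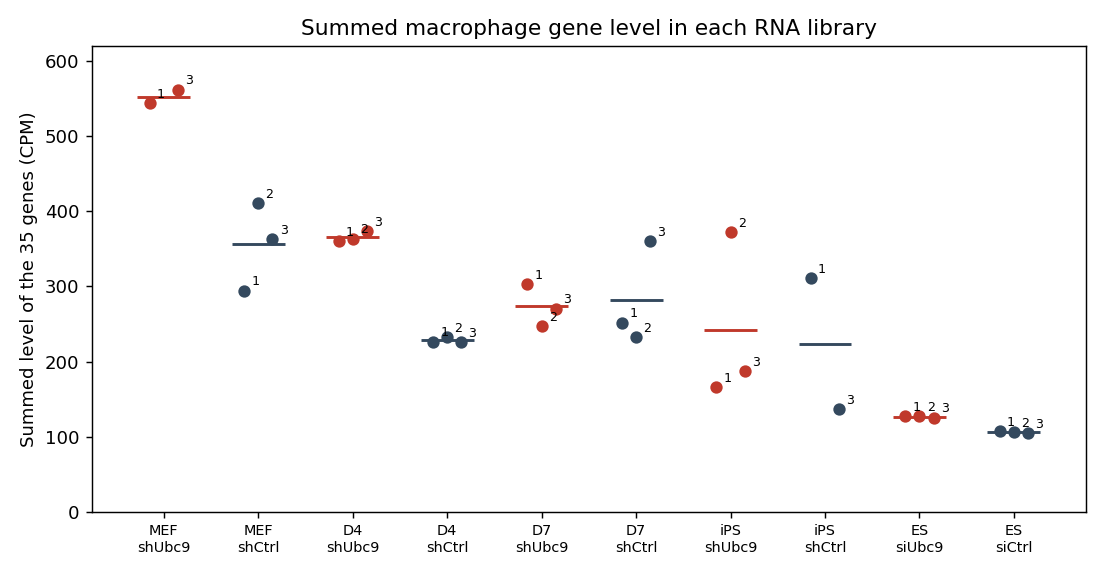
Summed level of the 35 macrophage genes in each RNA library (CPM, linear axis from 0), with a point per library labelled by its replicate number, a bar at the group mean, Ubc9-depleted groups in red and controls in dark blue. The depleted libraries lie above the controls in MEF and at D4, the groups overlap at D7 and in iPS cells, and D7 shCtrl replicate 3 (360 CPM) and iPS shUbc9 replicate 2 (372 CPM) stand above the others of their groups.

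The ES siCtrl and MEF shCtrl libraries set the members' levels in the fibroblast cultures beside those in pluripotent cells. Of 34 members tested, 28 were lower and 5 higher in ES siCtrl by edgeR's quasi-likelihood test (adjusted p under 0.05 over all genes tested, the threshold used throughout); of all genes 42.8% were called lower and 47.7% higher, 90.5% in all. The complement genes C1qb and C1qc and the surface receptor gene Adgre1, which encodes F4/80, had no count in any ES siCtrl library, while in MEF shCtrl they were at 16.2 to 21.1, 16.8 to 21.1 and 12.3 to 18.2 CPM. Members higher in ES siCtrl were Mrc1, Cd163, Itgam, Cd68 and Laptm5. Cd68, a lysosomal glycoprotein gene widely used as a macrophage marker, had 47.9, 42.6 and 43.5 CPM in ES siCtrl, against 6.78, 9.76 and 8.55 CPM in MEF shCtrl. Laptm5 was at 27.2, 33.4 and 30.1 CPM in ES siCtrl and 9.66, 11.4 and 10.2 CPM in MEF shCtrl. A mean of at least 1 CPM in ES siCtrl was reached by 7 members, namely Mrc1, Itgam, Itgb2, Ms4a7, Cd68, Laptm5 and Coro1a. Their RNA was therefore present in cultures where C1qb, C1qc and Adgre1 were not counted. Most members that define macrophages were present in the fibroblast cultures, but the scavenger receptor gene Cd163 was nearly absent, with 1 count over both MEF shUbc9 libraries and 0.0410 to 0.0735 CPM in MEF shCtrl.

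In MEF, Ubc9 depletion came with higher levels of most members. The edgeR test called 21 of 33 tested members higher and 0 lower, beside 3.83% of all genes called higher and 2.21% lower, 6.04% in all. The members' median log2 fold change was 0.58, beside 0.00 for all genes, and 31 of 33 were positive. Without a filter on low counts, or with library sizes alone, 1 member, Cx3cr1, was called lower. The calls depended on single libraries, in the members and in all genes. Without MEF shCtrl replicate 3, 8 members were called higher, beside 2.46% of all genes called in either direction. Without MEF shUbc9 replicate 1 or 3 the lone depleted library is assumed to vary like the controls. The members' medians were then 0.583 and 0.575. Without MEF shCtrl replicate 2, the library highest in most members, 24 were called, beside 10.6% of all genes, and the median was 0.70. Over all refits without 1 library the median was between 0.53 and 0.70. A fit that takes its spread from all 28 libraries, iPS libraries included, called 1 member and 0.258% of all genes, with a median of 0.59 over the members.

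The lysosomal and killing genes were all called in MEF, 6 of 6, and their median log2 fold change was 0.69. Without MEF shCtrl replicate 3 the calls of Cd68, Laptm5 and Mpeg1 were lost (adjusted p = 0.0655, 0.0591 and 0.0935). Lyz2 was at 185 and 171 CPM in MEF shUbc9 and at 70.0, 110 and 96.7 CPM in MEF shCtrl, a log2 fold change of 0.95 ± 0.13 (SE, adjusted p = 0.00358). Ctss, encoding the antigen-processing protease cathepsin S, was at 30.8 and 34.6 CPM in shUbc9 against 17.7, 22.4 and 19.1 CPM in shCtrl (0.72 ± 0.09, adjusted p = 0.0018). Cybb, the catalytic subunit of the phagocyte oxidase, was at 13.2 and 15.2 CPM in shUbc9 against 5.35, 7.22 and 7.84 CPM in shCtrl (1.05 ± 0.13, adjusted p = 0.00235). In none of these 3 genes did the libraries of the groups overlap.

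Integrin and surface genes were called for 5 of 8 members, and their median log2 fold change was 0.63. Itgam, the integrin chain known as CD11b, had the smallest p of all members in MEF, at 10.0 and 9.76 CPM in shUbc9 against 2.83, 4.51 and 3.58 CPM in shCtrl (log2 fold change 1.42 ± 0.14, adjusted p = 0.000777). Its partner chain Itgb2 was 0.77 ± 0.12 higher (adjusted p = 0.00609), and Ptprc, the leukocyte phosphatase CD45, was at 0.41 ± 0.11 and missed the threshold (adjusted p = 0.0663). Of the Fc receptors and their adaptors 3 of 4 were called, led by the high-affinity receptor gene Fcgr1 at 1.14 ± 0.18 (adjusted p = 0.00611). Pattern and scavenger receptors were called for 3 of 5 tested, Cd14, Msr1 and Mrc1. Without MEF shCtrl replicate 3 the calls of Cd14, Mrc1, Fcer1g, Tyrobp, Cd53, Cd84 and Adgre1 were lost, with adjusted p from 0.0559 to 0.137. The growth factor receptor gene Csf1r and the factor gene Spi1 were called at 0.58 ± 0.12 and 0.74 ± 0.18 (adjusted p = 0.0224 and 0.0432). Both calls were lost in 3 of 5 refits without 1 library, with adjusted p up to 0.172 and 0.366, and that of Spi1 also with DESeq2 (adjusted p = 0.0654).

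The complement genes were not called in MEF. C1qa was at 19.2 and 22.0 CPM in MEF shUbc9 and at 18.5, 26.8 and 21.3 CPM in MEF shCtrl, a log2 fold change of -0.12 ± 0.12 (adjusted p = 0.648). C1qb and C1qc, the other chains of the C1q subcomponent, were at 0.19 ± 0.09 and 0.09 ± 0.09 (adjusted p = 0.297 and 0.599). The libraries of the groups overlapped in all 3 genes, and the 95% intervals of all 3 ended below the members' median of 0.58. Cx3cr1, the fractalkine receptor of tissue macrophages, had the opposite sign, at 1.77 and 1.76 CPM in shUbc9 and 2.14, 3.40 and 2.87 CPM in shCtrl (-0.68 ± 0.19, adjusted p = 0.0654). In all, 23 of 33 intervals held the median, 5 lay above it (Msr1, Fcgr1, Itgam, Lyz2 and Cybb) and 5 below it (the 3 C1q genes, Cx3cr1 and Coro1a).

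**Figure D2:**
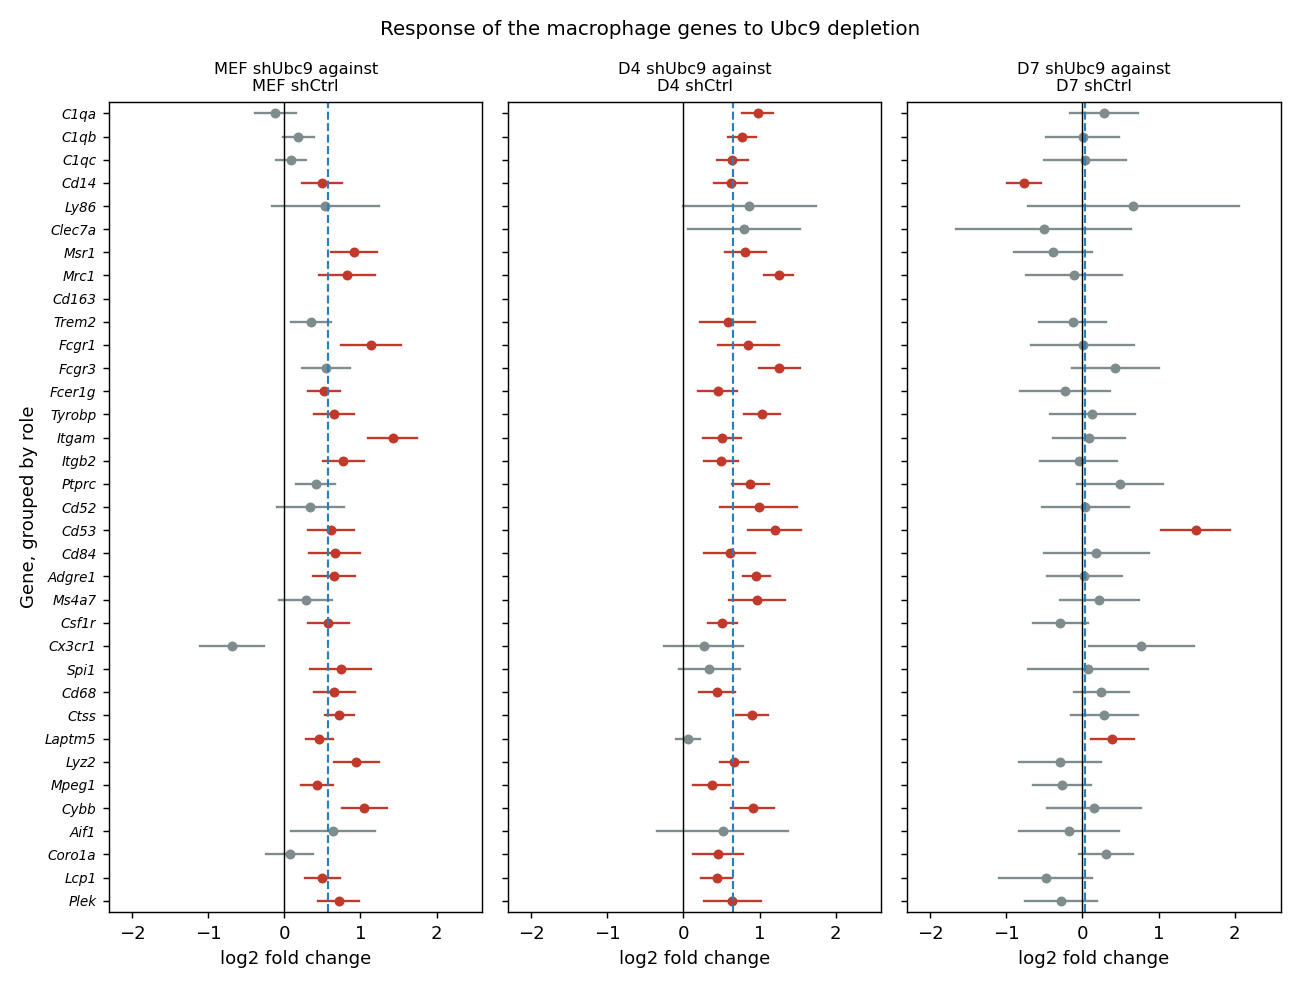
Log2 fold change of each tested member on Ubc9 depletion in MEF, at D4 and at D7, with 95% intervals from the edgeR fit; red marks an adjusted p under 0.05, grey the rest, the black line is 0 and the dashed blue line is the members' median (0.58, 0.65 and 0.04). All points lie right of 0 at D4, the C1q genes, Cx3cr1 and Coro1a lie left of the other members in MEF, and at D7 most intervals span 0.

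At D4 the members were higher again in the depleted cells, and this time the C1q genes were among them. The edgeR test called 28 of 34 tested members higher and 0 lower, beside 27.2% of all genes called higher and 26.1% lower, 53.2% in all. Every one of the 34 log2 fold changes was positive, with a median of 0.65 beside -0.01 for all genes. The depleted libraries lay wholly above the controls for 31 of the 34. Of all genes tested, 32.3% had the depleted libraries wholly above the controls and 28% wholly below. Leaving out any 1 library gave 27 or 28 called, and the fit across all 28 libraries gave 3, fewer than the 26% of all genes it called, with a median of 0.63 and all 34 positive. The 6 tested members not called were Ly86, Clec7a, Cx3cr1, Spi1, Laptm5 and Aif1.

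The mannose receptor gene Mrc1 had the smallest p, at 12.6, 12.8 and 12.5 CPM in D4 shUbc9 against 4.83, 5.41 and 5.36 CPM in D4 shCtrl (2.39-fold, log2 fold change 1.25 ± 0.08, adjusted p = 7.16e-06). Adgre1 was at 22.5, 23.0 and 24.0 CPM in shUbc9 and 11.3, 11.7 and 12.2 CPM in shCtrl (0.96 ± 0.08, adjusted p = 1.65e-05). C1qa was at 14.6, 14.1 and 13.2 CPM in shUbc9 and 6.51, 7.79 and 6.67 CPM in shCtrl (0.98 ± 0.09, adjusted p = 3.56e-05). For these 3 genes the lowest depleted library was above the highest control by more than the range within either group. C1qb was at 12.9, 12.1 and 12 CPM in shUbc9 and 6.71, 7.20 and 7.39 CPM in shCtrl (0.77 ± 0.08, adjusted p = 8.26e-05), and C1qc was 0.64 ± 0.09 higher (adjusted p = 0.000354).

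All 4 Fc receptor and adaptor genes were called at D4, and their median log2 fold change was 0.94. Fcgr3, a low-affinity receptor for IgG, was at 5.04, 4.58 and 4.36 CPM in shUbc9 against 1.77, 2.0 and 1.95 CPM in shCtrl (1.26 ± 0.12, adjusted p = 4.32e-05). Tyrobp, the signalling adaptor known as DAP12, was at 6.58, 6.54 and 6.38 CPM in shUbc9 against 2.77, 3.37 and 3.18 CPM in shCtrl (1.03 ± 0.10, adjusted p = 5.6e-05). The integrin and surface genes were called for 8 of 8, with a median of 0.92.

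Among the lysosomal genes Ctss was at 13.1, 13.0 and 14.9 CPM in D4 shUbc9 against 7.16, 7.41 and 7.06 CPM in D4 shCtrl (0.90 ± 0.09, adjusted p = 7.2e-05). Lyz2 was at 105, 109 and 123 CPM in shUbc9 against 70.4, 73.6 and 65.9 CPM in shCtrl (0.66 ± 0.08, adjusted p = 0.000176). The exception was Laptm5, at 19.4, 19.9 and 19.4 CPM in shUbc9 and 18.5, 17.9 and 19.0 CPM in shCtrl (0.06 ± 0.07, adjusted p = 0.498). Its interval lay below the members' median, as did those of Mpeg1, a pore-forming protein of phagocytes, and Lcp1, an actin-bundling protein; 24 of 34 intervals held the median, and 7 lay above it (C1qa, Mrc1, Fcgr3, Tyrobp, Cd53, Adgre1 and Ctss).

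The fold changes in MEF and at D4 were compared by the difference of the responses, D4 minus MEF. Of all genes 17% were called with a positive difference and 19.6% with a negative one, 36.6% in all. Of 34 members, 7 had a positive difference (C1qa, C1qb, C1qc, Fcgr3, Ptprc, Ms4a7 and Cx3cr1) and 2 a negative one (Itgam and Laptm5). The median difference was 0.02. The positive difference of Cx3cr1 came with a log2 fold change of -0.68 in MEF, and Cx3cr1 was called in neither state. C1qa differed by 1.07 ± 0.16 on the log2 scale (adjusted p = 0.000321) and Itgam by -0.94 ± 0.19 (adjusted p = 0.00241). The share of members called, 9 of 34, was no higher than that of all genes. With a replicate block 2 were called positive, C1qa and C1qb, beside 20.3% of all genes called. Across all 28 libraries 0 were called in either direction, beside 4.65%. Without 1 library, between 4 (without MEF shCtrl replicate 2) and 12 (without MEF shCtrl replicate 1) were called positive.

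At D7 few members differed between the hairpins. Of 34 tested, 2 were called higher and 1 lower, beside 27.3% of all genes called higher and 26.3% lower, 53.6% in all. The median log2 fold change was 0.04, beside 0.01 for all genes. Cd53, a tetraspanin of white blood cells, was at 7.75, 6.45 and 7.62 CPM in D7 shUbc9 and 2.0, 2.58 and 3.22 CPM in D7 shCtrl (2.81-fold, log2 fold change 1.49 ± 0.20, adjusted p = 0.00033). Laptm5 was at 28.6, 34.6 and 29.5 CPM in shUbc9 and 23.0, 20.4 and 25.3 CPM in shCtrl (0.39 ± 0.12, adjusted p = 0.0257), a call lost in 4 of 6 refits without 1 library (adjusted p up to 0.107), with the replicate block (0.0528) and across all 28 libraries (0.241). Cd14, the co-receptor for bacterial lipopolysaccharide, fell, at 10.7, 9.21 and 9.41 CPM in shUbc9 against 16.3, 17.0 and 15.2 CPM in shCtrl (-0.77 ± 0.10, adjusted p = 0.000261). The groups did not overlap in these 3 genes, and overlapped in 30 of the 34 members. Of all genes tested, 32.4% had the depleted libraries wholly above the controls and 25.8% wholly below.

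These D7 values depended on D7 shCtrl replicate 3, the library noted above. Its level over the mean of replicates 1 and 2 was above 1 for 32 of 35 members, with a median ratio of 1.49. Lyz2 was at 96.5, 67.8 and 80.6 CPM in D7 shUbc9 and at 82.9, 74.9 and 132 CPM in D7 shCtrl. Without replicate 3, 7 members were called higher, beside 48.1% of all genes called in either direction. The median was 0.32 and 26 of 34 were positive. Without D7 shCtrl replicate 1 or 2, 1 was called higher, beside 40% and 52% of all genes called, and the medians were -0.13 and -0.12. With library sizes alone, a scaling that moved the median of all genes to 0.21, 9 members were called higher with a median of 0.25. Of all genes 55.1% were called with that scaling.

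The response at D7 minus the response at D4 was negative for 31 of 34 members, with a median of -0.69, and 6 were called lower (Cd14, Msr1, Mrc1, Adgre1, Csf1r and Lyz2) and 0 higher, beside 6.24% of all genes called lower and 6.04% higher, 12.3% in all. Between 4 and 12 were called lower without 1 library, 12 with DESeq2 and 1 with all 28 libraries. Without D7 shCtrl replicate 3, 6 were called lower and 1 higher, and the median was -0.46. Cd14 differed by -1.38 ± 0.13 (adjusted p = 4.82e-05). This difference and the depletion comparisons use the same D4 and D7 libraries, so they are not separate support for each other.

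Along the course under the control hairpin, most members fell between MEF and D4. Of 33 tested, 27 were lower and 3 higher in D4 shCtrl than in MEF shCtrl, beside 33.5% of all genes called lower and 33.3% higher, 66.7% in all. Their median log2 fold change was -0.81, beside 0.01 for all genes. C1qa fell by 1.62 (SE 0.12, adjusted p = 2.24e-06), Ctss by 1.41 (SE 0.09, adjusted p = 6.73e-07) and Cx3cr1 by 1.70 (SE 0.21, adjusted p = 5.97e-05) on the log2 scale. Laptm5, Itgam and Cd14 rose, by 0.87 ± 0.08, 0.90 ± 0.15 and 0.54 ± 0.11 (adjusted p = 8.8e-06, 0.000493 and 0.00158). Without MEF shCtrl replicate 2, 23 were called lower with a median of -0.79, and across all 28 libraries 12, beside 37.4% of all genes called, with a median of -0.75. From D4 shCtrl to D7 shCtrl 1 of 32 members was called, Cd14, which was 1.03 ± 0.08 higher at D7 (adjusted p = 0.000133). Of all genes 10.6% were called higher and 7.65% lower, 18.2% in all. The members' median was 0.21, but -0.04 without D7 shCtrl replicate 3, where 2 members were called lower.

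In the depleted cells more members were called between D4 and D7. In D7 shUbc9 18 of 34 members were lower and 1, Laptm5, higher than in D4 shUbc9, beside 10.4% of all genes called lower and 14.7% higher, 25.1% in all, and the members' median was -0.42. Mpeg1 was at 10.4, 11.1 and 9.45 CPM in D7 shUbc9 and 19.6, 19.1 and 19.1 CPM in D4 shUbc9 (-0.86 ± 0.08, adjusted p = 0.000132). C1qa, C1qb and C1qc were lower, with log2 fold changes of -0.73, -0.93 and -0.79. A fit across all 28 libraries called 1 lower and 0 higher, beside 11.5% of all genes, with a median of -0.45. These steps share the D4 and D7 libraries with the depletion comparisons.

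**Figure D3:**
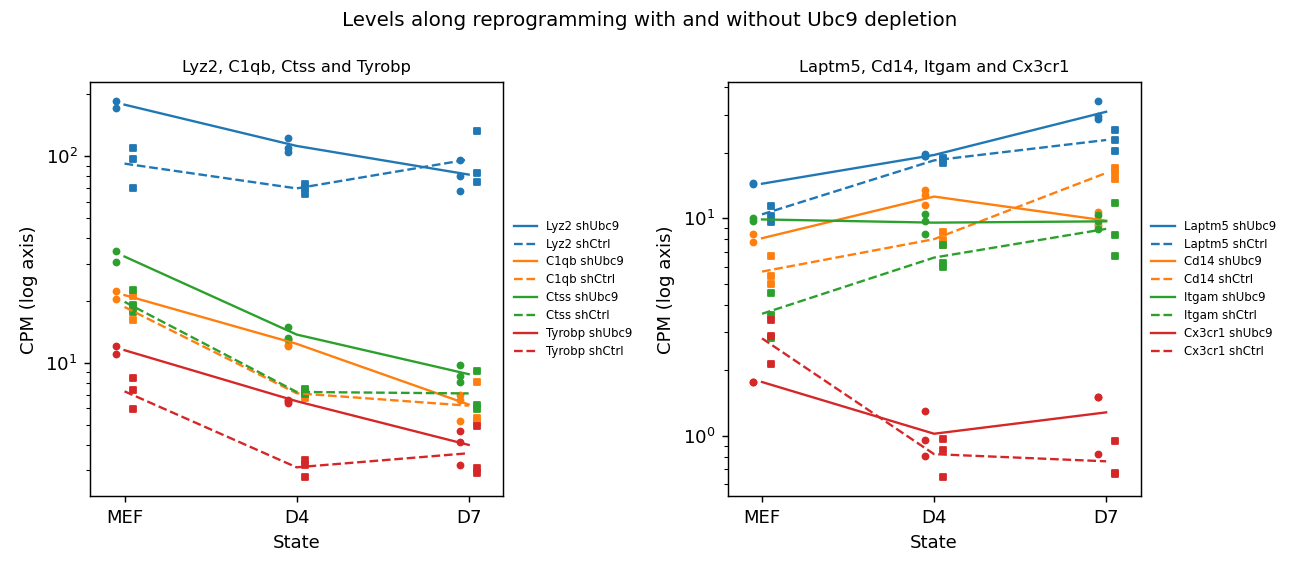
CPM on a log axis in MEF, at D4 and at D7, with lines through group means, circles and solid lines for shUbc9, and squares and dashed lines for shCtrl. The group means of Lyz2, C1qb, Ctss, Tyrobp and Cx3cr1 are lower at D4 than in MEF with either hairpin, those of Laptm5 and Cd14 are higher, and those of Itgam are close to each other with shUbc9 and higher at D4 with shCtrl.

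Levels of most members varied together over the 17 libraries of MEF, D4 and D7. The correlation of each member's log2 CPM with the mean of the other members had a median r of 0.886 over the 35 members, from -0.656 for Cd163 to 0.993 for Tyrobp. The points share the library, its depth and the state of the cells, and these r are a description with no test. After subtraction of each group's own mean, which leaves the differences between libraries of 1 group, the median r was 0.828. Among members with a mean of at least 1 CPM, those that ran apart most were Laptm5 (r of -0.534), Cd14 (-0.302) and Itgam (0.0271). Within groups Itgam reached 0.828, against 0.350 for Laptm5 and 0.319 for Cd14. A low r within groups was not particular to Laptm5 and Cd14, as it was 0.209 for Mpeg1 and 0.319 for Coro1a. Outside the members, the genes most like their mean among 14341 ranked were Cyth4 (r of 0.979), Tlr13 (0.963), Lilr4b (0.959), Lilrb4a (0.957) and Ncf1 (0.954), followed by C3ar1, Garnl3, Arhgap30, Dock2 and Lpxn with r between 0.931 and 0.953. The list was ranked by likeness to the members, and 5 of these 10 genes are in the wider macrophage list below.

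**Figure D4:**
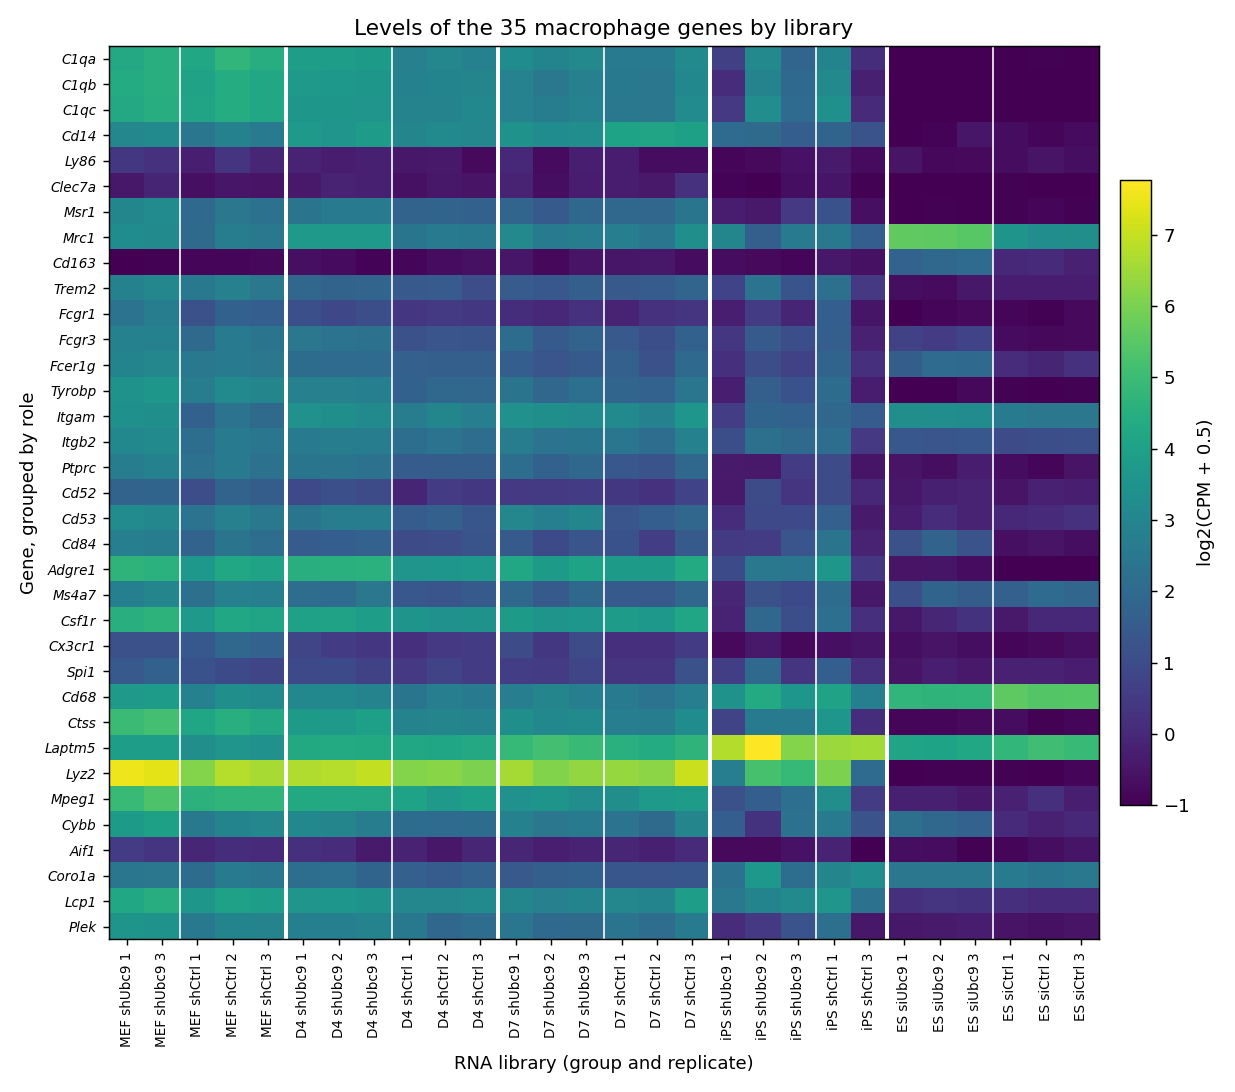
Level of each of the 35 members, as log2(CPM + 0.5), in every RNA library, with depleted libraries left of their controls in each state and the members grouped by role. Most rows darken together in ES cells, in iPS shCtrl replicate 3 and in iPS shUbc9 replicate 1, while Laptm5 is brightest in iPS cells, and Cd68 and Mrc1 are bright in ES cells.

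In iPS cells the members varied widely between libraries of the same hairpin, and the hairpins overlapped. C1qb was at 0.581, 7.08 and 3.51 CPM in iPS shUbc9 and at 8.13 and 0.348 CPM in iPS shCtrl, and Lyz2 was at 6.20, 36.3 and 29.1 CPM in shUbc9 and 65.3 and 3.73 CPM in shCtrl. Laptm5, in contrast, was at 107, 217 and 70.1 CPM in shUbc9 and 85.8 and 92.7 CPM in shCtrl. The median ratio of iPS shCtrl replicate 1 to replicate 3 was 9.19 over the 27 members under 1 CPM in ES siCtrl with a count in replicate 3, and 2.07 over the 7 members at or above it. The edgeR test called 0 of 30 members and 0 of 17294 genes (0% of all genes), with 0 members and 246 genes at an unadjusted p under 0.05; DESeq2 called 0 members and 10 genes. The members' median log2 fold change was -0.34, but it was 1.53 without iPS shCtrl replicate 1 and -1.13 without iPS shCtrl replicate 3, and 0.03 and -0.82 without iPS shUbc9 replicates 1 and 2. Fibroblast markers, 14 genes summed, were at 1539 to 4059 CPM in iPS shUbc9 and 1615 to 2517 CPM in iPS shCtrl; their part in these values was not tested.

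Against D7 shCtrl, iPS shCtrl had 2 of 34 members called higher (Laptm5 and Coro1a) and 4 lower (Cd14, Itgam, Csf1r and Cx3cr1), beside 36.2% of all genes called higher and 37.6% lower, 73.8% in all. Laptm5 was 1.86 ± 0.17 higher and Coro1a, a coronin that acts on actin in leukocytes, 1.98 ± 0.23 higher (adjusted p = 7.35e-05 and 0.000233). Without iPS shCtrl replicate 1, 27 members were called lower, beside 78.7% of all genes called, and the median was -2.89, against 4 and -0.81 with both libraries. Without iPS shCtrl replicate 3, 5 were lower and 5 higher, beside 75.9% of all genes, and the median was 0.01. A replicate block, by numbers that did not pair these libraries, gave 22 lower.

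In ES cells the members called on Ubc9 depletion went both ways. Of 20 members tested, 8 were higher and 2 lower, beside 21.3% of all genes called higher and 17.8% lower, 39.1% in all. The members' median was 0.37, beside 0.01 for all genes, and 5 of 20 intervals held it. Fcgr3, Cd84 and Plek were below the minimum for testing in every ES siCtrl library and entered the test through ES siUbc9 only, so the calls of Fcgr3 and Cd84 could only be higher; of the other 17 members 6 were higher and 2 lower, with a median of 0.33. Mrc1 was at 49.3, 47.7 and 44.4 CPM in ES siUbc9 against 11.1, 9.31 and 9.62 CPM in ES siCtrl (4.84-fold, log2 fold change 2.28 ± 0.07, adjusted p = 7.76e-08). Cd163, the receptor for haptoglobin bound to haemoglobin, was at 2.90, 3.36 and 3.64 CPM in siUbc9 against 0.480, 0.538 and 0.371 CPM in siCtrl (7.44-fold, adjusted p = 2.93e-06). Cd84, a surface receptor of the SLAM family, was at 1.75, 2.96 and 1.87 CPM in siUbc9 against 0.134, 0.194 and 0.124 CPM in siCtrl (15.4-fold, from 279 counts in siUbc9 and 22 in siCtrl, adjusted p = 1.33e-05). In these 3 genes every depleted library was above every control.

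Fcgr3 was at 1.15, 0.926 and 1.18 CPM in ES siUbc9 against 0.0961, 0.0645 and 0.0824 CPM in ES siCtrl (13.1-fold, from 125 counts in siUbc9 and 12 in siCtrl, adjusted p = 1.04e-05). Cybb was at 4.16, 3.32 and 2.92 CPM in siUbc9 against 0.538, 0.366 and 0.494 CPM in siCtrl (7.39-fold, adjusted p = 7.02e-06). Fcer1g, the shared gamma chain of Fc receptors, was 5.98-fold higher (adjusted p = 1.4e-05) and Itgam 1.82-fold higher (adjusted p = 3.61e-05). Itgb2 was called at 1.32-fold (adjusted p = 0.0412), a call lost whenever 1 library was left out.

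The opposite direction was taken by Cd68, at 27.1, 25.6 and 26.1 CPM in ES siUbc9 against 47.9, 42.6 and 43.5 CPM in ES siCtrl (-0.72 ± 0.06, adjusted p = 1.16e-05). Laptm5 fell likewise, at 16.9, 16.5 and 18.6 CPM in siUbc9 against 27.2, 33.4 and 30.1 CPM in siCtrl (-0.76 ± 0.09, adjusted p = 0.000235). Several genes called higher at D4 were at or near 0: C1qa, C1qb and C1qc had no count in any ES siUbc9 library, and Lyz2 was at 0 to 0.0214 CPM and Ctss at 0.0544 to 0.0858 CPM there. Adgre1 was at 0.107 to 0.200 CPM in ES siUbc9 and at 0 in ES siCtrl, and was not tested because of its low counts.

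**Figure D5:**
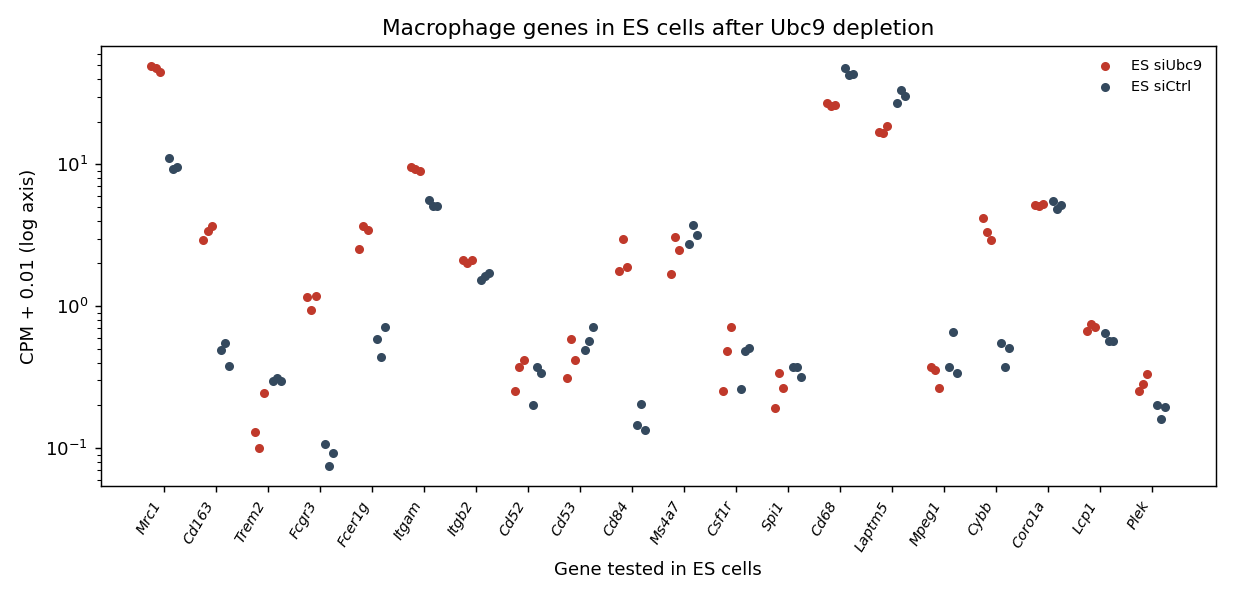
CPM + 0.01 on a log axis of the 20 members tested in ES cells, with a point per library, siUbc9 in red left of siCtrl in dark blue. Mrc1, Cd163, Fcgr3, Fcer1g, Cd84 and Cybb lie above their controls by wide gaps, and Cd68 and Laptm5 lie below them.

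Other genes known from macrophages were followed as lists, chosen by function. A wider list of 50 macrophage genes had 18 higher and 0 lower of 44 tested in MEF (median log2 fold change 0.59), and 30 higher and 2 lower of 42 at D4 (median 0.64). At D7 it had 7 higher and 3 lower of 42 (median 0.14), in iPS cells 0 called of 39, and in ES cells 5 higher and 10 lower of 25 (median -0.23). Of all genes 3.83% were called higher and 2.21% lower in MEF, and 27.2% and 26.1% at D4. The shares were 27.3% and 26.3% at D7, 0% in iPS cells, and 21.3% and 17.8% in ES cells. Gpnmb, a glycoprotein of macrophages and other cells, averaged 109 CPM in MEF shUbc9 and 45.6 CPM in MEF shCtrl, and was higher in MEF (1.25, adjusted p = 4.76e-05), at D4 (1.00, adjusted p = 2.71e-05) and at D7 (1.38, adjusted p = 2.41e-05). Marco, a scavenger receptor, was at a mean of 3.60 CPM in MEF shUbc9 and had no count in MEF shCtrl. It could enter the test only through MEF shUbc9, so a call could only be higher. Whether other genes of this list entered in the same way was not checked. Cd5l, a protein secreted by tissue macrophages, averaged 9.90 CPM in D4 shUbc9 and 3.75 CPM in D4 shCtrl (1.36, adjusted p = 2.65e-05).

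Genes of macrophage activation, many of which fibroblasts also express, had 9 higher and 1 lower of 23 in MEF, beside 3.83% and 2.21% of all genes. At D4 they had 13 and 4 of 22, beside 27.2% and 26.1%, and at D7 5 and 6 of 23, beside 27.3% and 26.3%. In iPS cells 0 of 17 were called, and in ES cells 8 and 1 of 15, beside 21.3% and 17.8% of all genes. In MEF the acute-phase genes Saa3 and Lcn2 were 3.01 and 4.45 higher on the log2 scale (adjusted p = 1.65e-05 and 3.87e-05), and the chemokine gene Ccl2 was 0.86 higher (adjusted p = 9.86e-05). Growth factors and regulators of the macrophage lineage had 2 higher and 0 lower of 14 in MEF, 3 and 5 of 14 at D4, beside 27.2% of all genes higher and 26.1% lower there, 4 and 5 of 14 at D7, beside 27.3% and 26.3%, 0 called of 13 in iPS cells, and 6 and 2 of 12 in ES cells. Csf1, which encodes a ligand of Csf1r, averaged 110 CPM in D4 shUbc9 and 217 CPM in D4 shCtrl (-1.01, adjusted p = 1.95e-05), and 105 CPM in D7 shUbc9 and 272 CPM in D7 shCtrl (-1.41, adjusted p = 6.67e-06). Il34, the other ligand of that receptor, averaged 47.1 CPM in D7 shUbc9 and 22.4 CPM in D7 shCtrl (1.04, adjusted p = 2.31e-05). Osteoclast genes, of a related lineage, had 2 higher and 0 lower of 5 in MEF, 1 and 1 of 4 at D4, 2 and 1 of 5 at D7, 0 called of 7 in iPS cells, and 3 and 2 of 6 in ES cells. For these lists too, the shares of all genes called are those given beside the activation genes.

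Markers of other cell types give the setting of these values. Fibroblast markers had 4 higher and 0 lower of 14 in MEF, 0 and 11 of 14 at D4 and 0 and 12 of 14 at D7, and their sum was 23384 to 25497 CPM in D4 shUbc9 and 33111 to 44157 CPM in D4 shCtrl. Pluripotency markers had 0 called of 2 in MEF, 4 higher and 1 lower of 6 at D4, and 11 higher and 0 lower of 12 at D7. Of all genes 3.83% were called higher and 2.21% lower in MEF, 27.2% and 26.1% at D4, and 27.3% and 26.3% at D7. Summed T-cell markers were between 1.91 and 6.70 CPM in the MEF, D4 and D7 libraries, B-cell markers between 0.841 and 1.3 CPM, NK-cell markers between 0.218 and 1.2 CPM, mast-cell markers between 1.03 and 3.19 CPM and neutrophil markers between 0.39 and 7.6 CPM. Cd3e, which defines T cells, had no count in any MEF library. Other T-cell markers were counted there: of the 10 listed, 5 to 6 had a count per MEF shCtrl library and 7 to 8 per MEF shUbc9 library. Dendritic-cell markers summed to between 5.66 and 9.07 CPM, erythroid markers to between 2.56 and 9.42 CPM, megakaryocyte markers to between 10.4 and 26.6 CPM and endothelial markers to between 50.6 and 208 CPM. In MEF, 1 of 4 megakaryocyte genes was higher (Pf4, which macrophages also express, 1.78, adjusted p = 0.0154) and 1 of 5 endothelial genes lower. At D4 the neutrophil sum was 3.72 to 4.61 CPM in shUbc9 and 1.69 to 2.47 CPM in shCtrl, with Ltf, encoding lactoferrin, called of 3 genes tested, and the NK-cell sum was 0.720 to 1.18 CPM in shUbc9 and 0.364 to 0.505 CPM in shCtrl, with Eomes, a T-box factor, called of 1 tested. The endothelial sum there was 201 to 208 CPM in shUbc9 and 168 to 185 CPM in shCtrl. T-cell, mast-cell and megakaryocyte sums lay wholly lower in D4 shUbc9 than in D4 shCtrl, and the B-cell, dendritic-cell and erythroid sums overlapped. Fibroblast markers fell with the depletion at D4 and D7, and the other sums that did not overlap at D4 moved with it too. The part of any of these markers in the members' values was not tested.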

How the data were processed

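The authors deposited 1 RNA table that holds, per the file headers, raw read counts of genes (Entrez identifiers) and of repeat families. Each of its 28 library columns carries the name of 1 labelled sample, and gene counts ranged from 11.4 to 58.8 M per library. Listed in the submitters' processing notes are build mm9 and the tools STAR 2.5.0a, DESeq2 and featureCounts; for strand and for reads with several matches, no setting is stated in the labels. Symbols came from a RefSeq table of GRCm38, in which 24191 of 26301 identifiers matched. The 32 deposited peak lists, on mm9, were not used here, since no annotation of that build was at hand to place them at the members.

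The analysis used edgeR 4.0.16 in R 4.3.3. Genes were kept by filterByExpr (minimum count 10) and scaled by TMM in the groups compared, and tested two-sided by the quasi-likelihood test with Benjamini-Hochberg adjustment over all genes tested (threshold 0.05). Standard errors and 95% intervals are those of the fit. The 12 comparisons were 5 of depletion, 5 between states and 2 differences of responses. Alternatives were DESeq2 1.42.0, library sizes alone, sizes that include repeat families, no filter, a replicate block, 1 fit over all 28 libraries, and each library left out. The fit was tested on simulated counts. The level of the depleted gene is not reported here. Same-numbered libraries deviated together in every pair only between D4 shCtrl and MEF shCtrl (r from 0.158 to 0.426), where the block changed neither count of members called. Correlations used log2 CPM with a prior count of 2.

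The members, and 15 other lists with 194 genes of which 193 were in the table, were chosen with earlier results of these data known. Any member could be named. Values per library were planned for called members with the 8 smallest p at D4 or D7 and for called members against the majority direction, and others shown were chosen after their values were seen. Up to 3 called genes with the smallest p were named from other lists, as were the 10 genes most like the members.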

Additional observations from a re-analysis of the deposited data

Results flagged for a closer look

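The response to Ubc9 depletion differed between D4 and MEF for 9 of 34 members by the test of the difference itself (edgeR, adjusted over all genes tested, log2 scale, D4 minus MEF). Of all genes 36.6% were called by this test, so the share of members called was no higher than that of all genes. The difference was positive for C1qa (1.07, adjusted p = 0.000321), C1qb (0.57, adjusted p = 0.00361), C1qc (0.53, adjusted p = 0.00571), Fcgr3 (0.69, adjusted p = 0.0133), Ptprc (0.45, adjusted p = 0.0319), Ms4a7 (0.66, adjusted p = 0.0489) and Cx3cr1 (0.92, adjusted p = 0.034). For Cx3cr1 it came with a log2 fold change of -0.68 in MEF and no call in either state. The difference was negative for Itgam (-0.94, adjusted p = 0.00241) and Laptm5 (-0.42, adjusted p = 0.00628). Of 11 refits without 1 library, the call was kept in 7 for Ptprc, 2 for Ms4a7 and 4 for Cx3cr1, with highest adjusted p of 0.0964, 0.142 and 0.087. With the replicate block the calls of these 3 genes, of C1qc (adjusted p = 0.052) and of Fcgr3 (adjusted p = 0.097) were lost, and in the fit across all 28 libraries those of all 9.

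The response at D7 was lower than at D4 for 6 members by the same test (D7 minus D4): Cd14 (-1.38, adjusted p = 4.82e-05), Msr1 (-1.18, adjusted p = 0.00914), Mrc1 (-1.34, adjusted p = 0.0131), Adgre1 (-0.92, adjusted p = 0.0271), Csf1r (-0.78, adjusted p = 0.0147) and Lyz2 (-0.94, adjusted p = 0.0432). There were 34 members tested, and of all genes 6.24% were called lower and 6.04% higher. Of 12 refits without 1 library, the call was kept in 6 for Adgre1 and 3 for Lyz2, with highest adjusted p of 0.0683 and 0.107. That of Lyz2 was also lost with the replicate block (adjusted p = 0.0741), and the fit across all 28 libraries kept that of Cd14 only.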

How the results depend on the processing

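No alternative turned the direction of a member called in a depletion comparison or in a difference of responses: of 984 values for 77 such results, 812 kept their call and 172 did not. With 1 fit over all 28 libraries, members called higher numbered 1 in MEF, 3 at D4 and 0 for D7 against D4 shUbc9; members called lower numbered 12 for D4 against MEF shCtrl, 1 for D7 against D4 shUbc9, 13 for iPS against D7 shCtrl, 0 (with 0 higher) for the D4 minus MEF responses and 1 for D7 minus D4. With library sizes alone, 1 member was lower in MEF, 9 were higher at D7, 2 higher for D7 against D4 shUbc9, 1 lower for D4 minus MEF and 1 higher for D7 minus D4, and the summed level was 494.9 CPM in MEF shUbc9, 381.9 CPM in D4 shUbc9 and 128.3 CPM in ES siUbc9; the median of all genes moved to 0.21 at D7, 0.22 for iPS against D7, 0.27 for ES against MEF and 0.10 for D4 against MEF. DESeq2 gave 2 higher for D7 against D4 shCtrl, 2 higher for D7 against D4 shUbc9 and 12 lower for D7 minus D4. Without a filter, 1 was lower in MEF and 11 lower for D7 minus D4. With the replicate block, 1 was higher at D7, 3 higher for D7 against D4 shCtrl and 22 lower for iPS against D7 shCtrl, where the numbers did not pair the samples. It gave 2 higher for D4 minus MEF. There the block joined same-numbered depleted and control libraries within each state, whose deviations had r from -0.107 to -0.025 in MEF and from -0.368 to -0.00185 at D4. In MEF the replicate block gave 25 higher, at D4 27, and it moved no other count by over 1.5 times. Calls over all genes moved too. In MEF, at D4 and at D7, the fit over all 28 libraries called 0.258%, 26% and 36.3% of all genes. Library sizes alone called 8.04%, 52% and 55.1%, and DESeq2 7.79%, 50.8% and 50.2%. Without a filter the shares were 5.68%, 36.5% and 36.2%, and with the replicate block 11.5%, 44.1% and 44.2%. For the other comparisons, counts in this paragraph stand without such shares. The cause was not tested in any of these.

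Over refits that leave out 1 library, members higher and lower numbered 4 to 24 and 0 to 1 in MEF, 27 to 28 and 0 at D4, 1 to 7 and 1 to 3 at D7, 0 and 0 in iPS cells, and 7 and 2 to 3 in ES cells. They numbered 3 and 23 to 27 for D4 against MEF shCtrl, 1 to 3 and 0 to 2 for D7 against D4 shCtrl, 1 to 2 and 12 to 19 for D7 against D4 shUbc9, 2 to 5 and 4 to 27 for iPS against D7 shCtrl, and 4 to 5 and 28 for ES against MEF. For the differences of responses they were 4 to 12 and 2 for D4 minus MEF, and 0 to 1 and 4 to 12 for D7 minus D4. Of all genes, the depletion refits called 42.1% to 52% at D4 and 40% to 52% at D7. In MEF the refits without a control library called 2.46% to 10.6%. Depth limits members under about 1 CPM, such as Cd163, Clec7a, Ly86 and Aif1 in the fibroblast cultures, and the 15 members not tested in ES cells.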
